A study of Mus musculus with 6 samples.

Results

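The genes of the mouse major histocompatibility complex (MHC) were examined for acetylation of histone H3 at lysine 27 (H3K27ac), a mark found at active promoters and enhancers, in mouse embryonic stem cells (mESCs). The members were chosen by symbol, as the protein-coding genes of chromosome 17 whose symbol begins with H2-, together with Tap1, Tap2, Tapbp and B2m. This gave 38 of the 21853 protein-coding genes of the GRCm38 annotation, of which 37 lay on chromosome 17 and B2m on chromosome 2. H2-Ke6 is a member by symbol only, since its product is a hydroxysteroid dehydrogenase and no MHC molecule.

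Chromatin of E14 mESCs (ES-E14TG2a) was immunoprecipitated with the H3K27ac antibody ab4729 and sequenced (ChIP-seq), with chromatin of the human HEK293 line added as a spike-in. All cells grew in N2B27 medium with LIF and the inhibitors PD0325901 and CT-99021, and received for 2 h either DMSO (the control), NVP-2 at 100 nM, an inhibitor of the elongation kinase CDK9, or actinomycin D at 800 nM, which blocks transcription, with 2 replicates of each. The file analysed here is a list of 22973 control peaks, called on both control replicates together. It holds positions only, so no peak has a height or an error over replicates. The NVP-2 and actinomycin D samples were not analysed here.

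MHC class I molecules are heavy chains paired with the light chain encoded by B2m, and they present peptides from inside the cell to CD8+ T cells. The peptides are carried into the endoplasmic reticulum by the transporter of Tap1 and Tap2, and tapasin (Tapbp) holds class I molecules at that transporter until they are loaded. MHC class II molecules present peptides from the endocytic route to CD4+ T cells and are made mainly by antigen-presenting cells. Class I surface levels are known to be low on embryonic stem cells and to rise with interferon gamma.

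A gene was called marked where a control peak overlapped the window of 1 kb on each side of its transcription start site (TSS) by at least 1 bp. The promoters of B2m, H2-Q7 and H2-Q10, which had a peak to themselves, and of H2-Q6, H2-K1, H2-D1 and H2-Eb1, which had none, carry the contrasts described here and are shown from the RefSeq promoter table (GRCm38.p6). H2-Q6 is shown as the closest copy of H2-Q7, and H2-Eb1 as a class II promoter. Each runs 5′ to 3′ from 250 bases before to 50 after a RefSeq TSS, and capitals mark matches on either strand to 6 motifs: the Y box CCAAT, the CREB/ATF site TGACG, the X box core ACNGATG, the interferon response element core GAAANNGAA, the NF-kB motif GGNNTTNCC and the TATA box TATAAA. In H2-Q7 and H2-D1 the X box core and the TGACG match overlap and form 1 run of capitals, as do the NF-kB and CCAAT matches in H2-Eb1.
B2m, chr2:122147437-122147736, plus strand: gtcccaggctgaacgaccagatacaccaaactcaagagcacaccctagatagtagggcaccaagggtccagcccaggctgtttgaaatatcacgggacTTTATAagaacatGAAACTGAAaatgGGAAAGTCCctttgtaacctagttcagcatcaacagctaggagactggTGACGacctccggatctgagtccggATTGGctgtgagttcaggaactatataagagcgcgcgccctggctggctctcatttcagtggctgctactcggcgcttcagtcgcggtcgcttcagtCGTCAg
H2-Q7, chr17:35438905-35439204, plus strand: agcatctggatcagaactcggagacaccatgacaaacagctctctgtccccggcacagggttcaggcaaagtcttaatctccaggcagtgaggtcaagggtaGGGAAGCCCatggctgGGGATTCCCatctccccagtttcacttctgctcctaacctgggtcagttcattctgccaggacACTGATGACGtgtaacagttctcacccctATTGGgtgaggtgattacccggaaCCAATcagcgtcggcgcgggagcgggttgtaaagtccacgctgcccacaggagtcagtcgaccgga
H2-Q10, chr17:35469839-35470138, plus strand: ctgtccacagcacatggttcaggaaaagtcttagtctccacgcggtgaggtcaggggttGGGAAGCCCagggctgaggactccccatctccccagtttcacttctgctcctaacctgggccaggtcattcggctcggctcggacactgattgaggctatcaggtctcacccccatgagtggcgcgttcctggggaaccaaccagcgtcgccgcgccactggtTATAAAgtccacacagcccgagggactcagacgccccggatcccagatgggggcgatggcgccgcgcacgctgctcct
H2-Q6, chr17:35424600-35424899, plus strand: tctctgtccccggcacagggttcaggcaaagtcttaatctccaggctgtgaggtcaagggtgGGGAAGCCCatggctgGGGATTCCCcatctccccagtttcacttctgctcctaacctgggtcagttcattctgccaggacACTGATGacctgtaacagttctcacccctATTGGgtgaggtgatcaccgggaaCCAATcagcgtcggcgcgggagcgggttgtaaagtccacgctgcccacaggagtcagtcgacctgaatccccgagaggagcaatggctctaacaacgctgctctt
H2-K1, chr17:34000298-34000597, minus strand: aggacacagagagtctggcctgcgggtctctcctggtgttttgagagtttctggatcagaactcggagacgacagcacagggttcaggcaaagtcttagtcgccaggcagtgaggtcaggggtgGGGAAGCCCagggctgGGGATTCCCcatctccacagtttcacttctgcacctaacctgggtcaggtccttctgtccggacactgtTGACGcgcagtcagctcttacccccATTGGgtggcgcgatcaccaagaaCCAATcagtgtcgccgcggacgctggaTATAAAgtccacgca
H2-D1, chr17:35262844-35263143, plus strand: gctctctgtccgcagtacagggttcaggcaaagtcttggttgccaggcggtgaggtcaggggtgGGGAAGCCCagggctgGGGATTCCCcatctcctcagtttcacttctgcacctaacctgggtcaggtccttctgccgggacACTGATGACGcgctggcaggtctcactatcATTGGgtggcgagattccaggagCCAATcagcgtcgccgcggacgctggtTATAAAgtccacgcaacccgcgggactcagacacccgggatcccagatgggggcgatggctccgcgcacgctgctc
H2-Eb1, chr17:34305617-34305916, plus strand: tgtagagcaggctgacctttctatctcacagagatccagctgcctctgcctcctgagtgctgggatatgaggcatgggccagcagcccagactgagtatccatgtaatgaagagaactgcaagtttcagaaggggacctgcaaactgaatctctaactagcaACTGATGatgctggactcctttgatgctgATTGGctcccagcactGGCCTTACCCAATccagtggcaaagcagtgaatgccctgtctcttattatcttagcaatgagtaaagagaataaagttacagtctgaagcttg

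Few MHC promoters carried a control peak. Of the 38 members, 7 were marked, namely Tapbp, H2-Ke6, H2-DMa, H2-Q7, H2-Q10, H2-M5 and B2m. This is 18.4% (95% Wilson interval, 9.22 to 33.4), beside 48.8% of all protein-coding promoters (10674 of 21853) and 51.3% of those on chromosome 17. For 6 members the TSS fell within the peak, which is 15.8% beside 44.2% of all protein-coding genes. Without H2-Ke6, 6 of 37 members (16.2%) were marked. The intervals cover counting error only and treat genes as independent, which neighbouring and duplicated genes are not, and no test was made because the members lie side by side in 1 list of pooled samples.

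**Figure D1:**
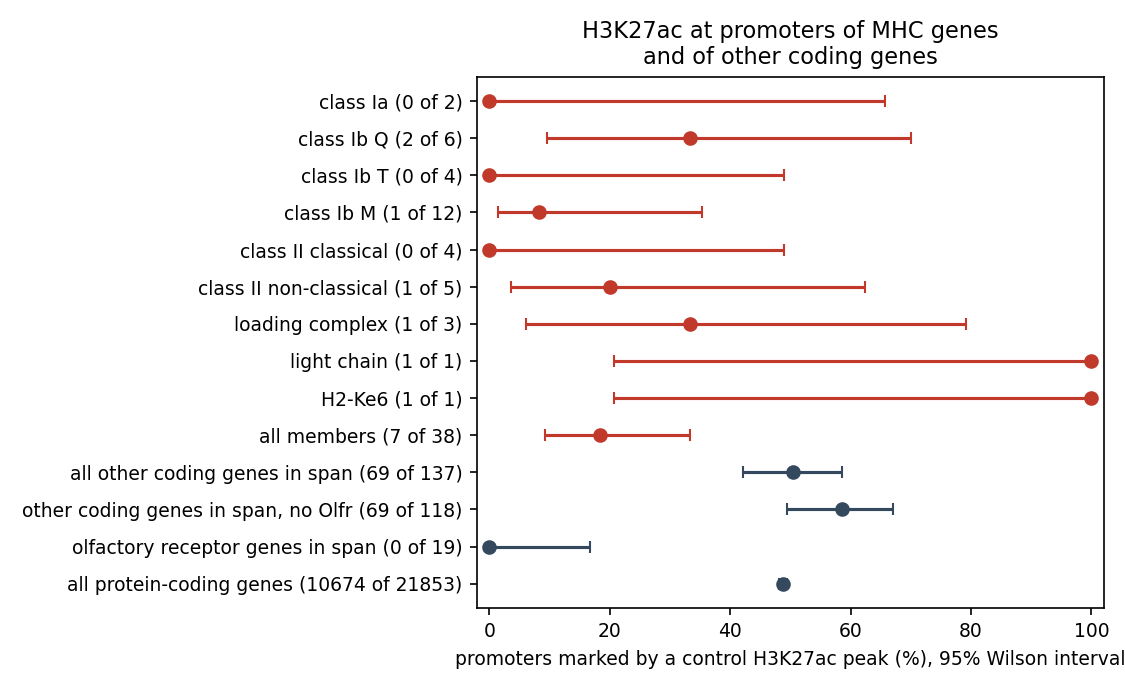
Share of genes with a control H3K27ac peak within 1 kb of the TSS (percent, horizontal axis), for groups of MHC genes and for comparison sets, with 95% Wilson intervals as bars and the count of marked genes beside each. All MHC genes lie at 18.4%, all protein-coding genes at 48.8% and the other genes of the same chromosome 17 span at 50.4%, or at 58.5% without olfactory receptor (Olfr) genes.

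As a whole, the other genes of the same region were marked more often. The H2- genes on chromosome 17 span 3.49 Mb from H2-K1 to H2-M2 (chr17:33996017-37483552). In that span 69 of 137 other protein-coding genes were marked (50.4%), a share near that of all protein-coding genes. When olfactory receptor genes were counted apart, it was 69 of 118 (58.5%, 49.5 to 67.0). Of the 19 olfactory receptor genes there, 0 were marked (0 to 16.8%, or up to 15.8% when 3 genes serve as the bound).

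Among class I heavy chain genes, 3 of 24 were marked (12.5%, 4.34 to 31.0). Neither classical gene was marked, although H2-K1 and H2-D1 encode the main molecules that present peptides to CD8+ T cells. The peak nearest to H2-K1 lay 18.4 kb downstream (chr17:33978444-33981908). The peak nearest to H2-D1 lay 8.14 kb upstream and was only 585 bp wide (chr17:35254008-35254592). The call for H2-K1 and H2-D1 was the same at the TSS of every annotated protein-coding isoform of either gene.

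The Q genes, non-classical class I genes next to H2-D1, held 2 of the 3 marked heavy chain genes. Of 6 Q genes 2 were marked (33.3%, 9.68 to 70.0), an interval that holds the 48.8% of all protein-coding genes. H2-Q7 encodes a form of the membrane-anchored Qa-2 antigen, and H2-Q10 a secreted class I molecule made mainly by the liver. The peak at H2-Q7 (chr17:35439222-35439767) was 546 bp wide and began 67 bp downstream of the TSS, so the TSS itself was outside it. The peak at H2-Q10 (chr17:35469918-35470483) was 566 bp wide and ran from position -171 to position +394 of the TSS, counted along the gene's strand. Both were among the narrowest promoter peaks of the list. The median width of the 9194 peaks at protein-coding promoters was 2048.5 bp, and only 3.06% of them were narrower than the peak at H2-Q7 and 3.44% narrower than that at H2-Q10.

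H2-Q1, H2-Q2, H2-Q4 and H2-Q6 were unmarked, with their nearest peaks 7.16 to 28.6 kb from the TSS. H2-Q2 was the closest of all unmarked members to a peak, 7.16 kb from one of 1591 bp that lay downstream (chr17:35349400-35350990) and overlapped no promoter. H2-Q6 lay 14.4 kb from the peak at H2-Q7. Aligned end to end, the promoters of H2-Q6 and H2-Q7 had 255 bases the same, 85.0% of the 300-base window. Those of H2-Q7 and H2-Q10 had 212 (70.7%). The lowest value of a class I pair was 53.7%, for H2-Q10 and H2-T23. The windows are offset, with GGGAAGCCC at -188 in H2-Q6, -148 in H2-Q7 and -191 in H2-Q10. Bases without a counterpart count as different, so these shares can understate the likeness of the stretches in common.

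The T and M genes, the other non-classical heavy chain genes, were marked only at H2-M5. All 4 T genes were unmarked, a count whose Wilson interval reaches 49.0% and so holds the share of all protein-coding genes. They lay 25.0 to 40.7 kb from a peak and include H2-T23, which encodes the Qa-1 ligand of natural killer cell receptors. Of the 12 M genes, 11 were unmarked, 14.0 to 286 kb from a peak. They include H2-M3, which presents peptides with an N-formyl group and lay 72.7 kb from a peak, and H2-M1, H2-M9, H2-M11 and the H2-M10 genes, a set known from sensory neurons of the vomeronasal organ.

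H2-M5 was marked by a single peak of 47651 bp (chr17:36966532-37014182), which reached from -24678 to +22972 bp of its TSS and covered the whole gene. Only 0.261% of promoter peaks were wider. The same peak covered the TSS of 2410137M14Rik, 8.27 kb downstream, and of Zfp57, 11.7 kb upstream, which encodes a zinc finger protein that keeps DNA methylation at imprinted loci in mESCs. Acetylation that belongs to H2-M5 cannot be told apart from that of these genes.

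B2m, which encodes the light chain of class I molecules, was marked. Its peak (chr2:122147113-122148826) was 1714 bp wide, ran from -573 to +1140 bp of the TSS and overlapped no other protein-coding promoter. It was the only member with a peak of its own that was wider than 1 kb. Thus 3 members, B2m, H2-Q7 and H2-Q10, were marked at a peak that touched no other protein-coding promoter (7.89% of members, beside 35.9% of all protein-coding genes).

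The loading complex was split. Tapbp was marked, whereas Tap1 and Tap2 were not, with the nearest peak at 64.3 and 80.2 kb. The peak at Tapbp (chr17:33896840-33920514) was 23675 bp wide, and 97.7% of promoter peaks were narrower. It ran from -22492 to +1182 bp of the TSS, across the promoters of Zbtb22 (3.16 kb from the TSS of Tapbp), of Daxx (9.89 kb), which encodes a chaperone of histone H3.3, and of Platr17 (14.2 kb). All 5 TSSs of the annotated protein-coding isoforms of Tapbp lay inside it.

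Of the 9 class II genes, 1 was marked (11.1%, 1.99 to 43.5). The classical genes H2-Aa and H2-Ab1, which encode the chains of the I-A molecule, and H2-Eb1 and H2-Eb2, beta chain genes of the I-E type, were all unmarked, 55.9 to 118 kb from a peak (0 of 4, with the same upper limit of 49.0%). Of the non-classical genes, H2-Oa and H2-Ob encode a modulator of peptide exchange, and H2-DMa, H2-DMb1 and H2-DMb2 the chains of the exchange factor DM itself. H2-DMa was marked, while H2-DMb2, H2-Oa, H2-DMb1 and H2-Ob were not, at 20.0, 24.1, 29.8 and 116 kb.

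The peak at H2-DMa (chr17:34116485-34123281, 6797 bp) ran from -6347 to +449 bp of this TSS, and it covered 19.1% of the gene as annotated with all of its transcripts. It is shared with Brd2, which encodes a bromodomain reader of acetylated histones and is transcribed in the opposite direction from a TSS 232 bp away. The other 2 annotated protein-coding isoforms of H2-DMa start 12.8 kb further downstream, and there the nearest peak was 12.3 to 12.4 kb away. A second RefSeq start site of H2-DMa (chr17:34125518) lay between these sites, also downstream of the peak. The call therefore belongs to the start site next to Brd2, and H2-DMa was unmarked when the isoform of longest spliced length stood for the gene.

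H2-Ke6 shared its peak (chr17:34024302-34028497, 4196 bp) with Ring1, which encodes a component of Polycomb repressive complex 1 and whose TSS lay 3.38 kb downstream. In all, 4 of the 7 marked members (Tapbp, H2-Ke6, H2-DMa and H2-M5) shared their peak with another protein-coding promoter (57.1%, 25.0 to 84.2), beside 26.5% of all marked protein-coding promoters. In each case the neighbouring TSSs were inside the peak as well. No peak was shared between members.

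**Figure D2:**
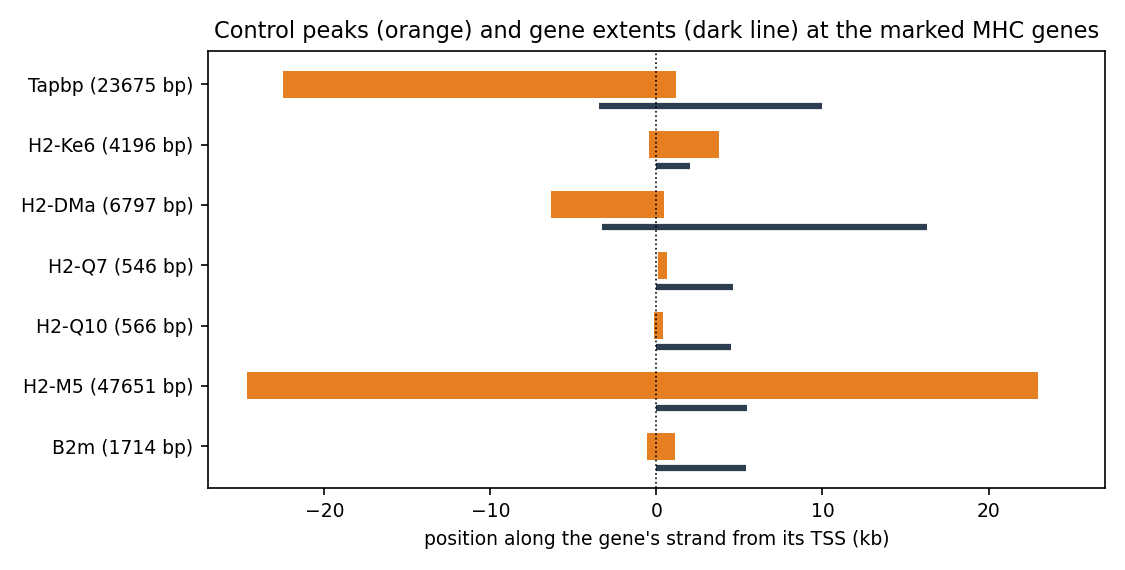
Control peaks (orange) and gene extents (dark lines) at the 7 marked MHC genes, drawn along the gene's own strand with the TSS at 0 (kb, horizontal axis). The peaks at H2-Q7 and H2-Q10 are 546 and 566 bp wide, whereas those at Tapbp and H2-M5 are 23675 and 47651 bp wide and reach far beyond the gene.

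Over all 38 members the median distance from TSS to nearest peak was 33.6 kb, beside 2.16 kb over all protein-coding genes. Unmarked members were about as far from a peak as other unmarked genes. The median distance from TSS to nearest peak was 53.7 kb over the 31 unmarked members, with a range of 7.16 to 286 kb, beside 60.3 kb over the 11179 unmarked protein-coding genes. Only H2-Q2 and H2-D1 had a peak within 10 kb (6.45%, beside 15.1% of all unmarked genes), and 16 members had none within 50 kb (51.6%, beside 54.1%). H2-M2 was the farthest at 286 kb, followed by H2-M11 at 275 kb.

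**Figure D3:**
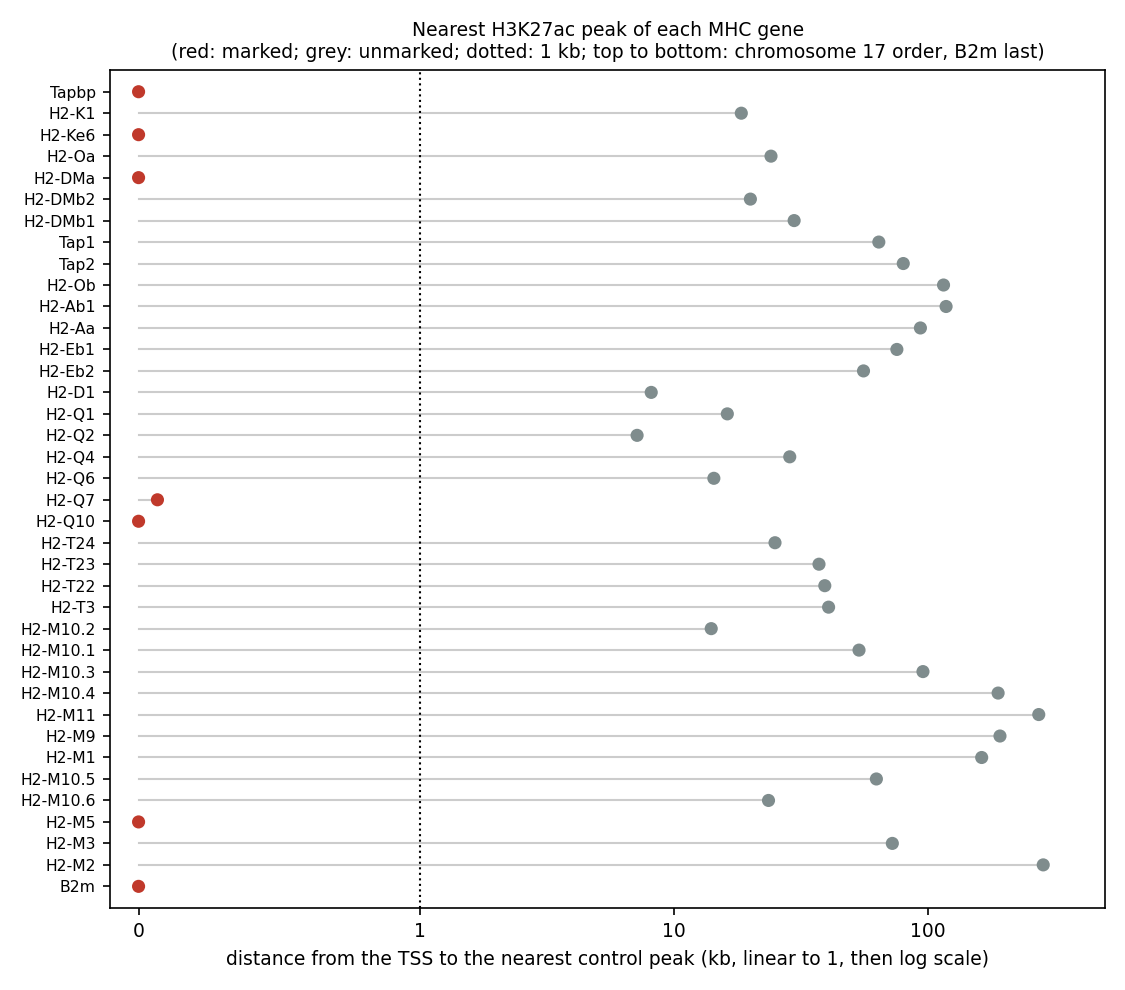
Distance from the TSS to the nearest control peak (kb, horizontal axis) for each of the 38 MHC genes, on an axis that is linear up to 1 kb and logarithmic beyond. Unmarked genes range from H2-Q2 at 7.16 kb to H2-M2 at 286 kb.

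The unmarked members on chromosome 17 lay in 10 stretches without any peak, and the 3 longest held 20 of the 31. A stretch of 258 kb (chr17:34123282-34381589), which began at the end of the H2-DMa and Brd2 peak, held 9 members, the class II genes H2-DMb2, H2-DMb1, H2-Ob, H2-Ab1, H2-Aa, H2-Eb1 and H2-Eb2 together with Tap1 and Tap2. It also held Psmb8 and Psmb9, which encode immunoproteasome subunits, and Btnl1 and Btnl2. A second stretch of 563 kb (chr17:36272459-36835775) held 9 M genes and no other protein-coding TSS. Another of 667 kb (chr17:37197558-37864274) held H2-M3 and H2-M2 among 32 genes named as olfactory receptors. Of the 22952 gaps between neighbouring peaks in the genome, 8.78%, 4.04% and 3.35% were as long as these or longer. The other 7 stretches held 11 unmarked members and were 42.4 to 130 kb long, lengths that 16.1% to 37.9% of all gaps reached.

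Between the clusters of MHC genes the peaks were denser. From H2-K1 to H2-Eb2 there were 8.69 peaks per Mb, covering 3.76% of the bases, and 4 of 7 other genes in that segment were marked. The following segment from H2-Eb2 to H2-D1, which holds the class III genes, had 31.5 peaks per Mb and 9.98% of its bases covered, and 32 of its 64 genes were marked. The Q segment from H2-D1 to H2-Q10 had 18.9 peaks per Mb, and only 2.53% of it was covered. Next to it, the segment from H2-Q10 to H2-T24 had 49.0 peaks per Mb and 27.3% of its bases in peaks, with 22 of 26 genes marked, among them Pou5f1. The T segment had 16.3 peaks per Mb and 2.34% covered, and 0 of its 5 other genes were marked. The M segment from H2-M10.2 to H2-M2 had 11.7 peaks per Mb, but 8.40% of it was covered, which includes the wide peak at H2-M5 and is close to the class III value. Of its 33 other genes 9 were marked, and 19 of the 33 were olfactory receptor genes. The segments are bounded by the members themselves and were drawn after the values were seen, so these densities are a description.

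Copies of class I genes are similar enough that short reads may not be placed at 1 copy, and reads of low mapping quality had been removed before peak calling. The share of 50-base stretches of the window of 1 kb on each side of the TSS that occur once in the genome had a median of 97.0% over the members, 98.4% over the marked and 96.8% over the unmarked, beside 100% over all protein-coding genes. It was under 50% for H2-Q6 (42.3%) and H2-Q7 (47.7%), and 52.6% for H2-T23. With 100-base stretches, which are closer to the length of the reads, these shares were 62.1%, 70.8% and 69.1%, and the median over members was 100%. Within the H2-Q7 peak 50.3% of 50-base stretches were unique, against 100% within the H2-Q10 peak. The part of misplaced or removed reads in the calls of H2-Q6, H2-Q7 and H2-T23 was not tested. For H2-K1 and H2-D1 the shares were 87.5% and 96.8% with 50-base stretches and 100% with 100-base stretches. E14 cells also come from another inbred strain than the reference genome, and the effect of sequence differences at these genes was not tested.

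In base composition, the median MHC promoter was closer to unmarked than to marked promoters of all genes. The CpG ratio, which is the number of CpG dinucleotides over that expected from the base counts, was computed on the 300 bases around the annotated TSS. Its median was 0.179 over the members, beside 0.784 over marked and 0.246 over unmarked protein-coding promoters. It was 0.521 for the 7 marked members (0.277 to 0.731) and 0.151 for the 31 unmarked members (0 to 0.595). A ratio above 0.6 was found for 3 marked members, H2-DMa (0.731), B2m (0.682) and H2-Q10 (0.654), and for no unmarked member, whereas 18.5% of unmarked and 75.9% of marked protein-coding promoters exceeded it. The highest values among unmarked members were 0.595 for H2-M3, 0.562 for H2-K1 and 0.548 for Tap1, which lie inside the range of the marked members. This split at 0.6 held only for these windows. At the RefSeq start sites the unmarked H2-D1 had 0.653, against 0.283 at the annotated TSS 364 bp away, and H2-M3 had 0.620. In the window of 1 kb on each side of the TSS, the unmarked H2-K1 (0.696), H2-D1 (0.638), H2-Q4 (0.626) and H2-Q6 (0.621) exceeded 0.6, while the marked B2m had 0.509. Median GC content was 56.0% for marked and 49.3% for unmarked members.

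**Figure D4:**
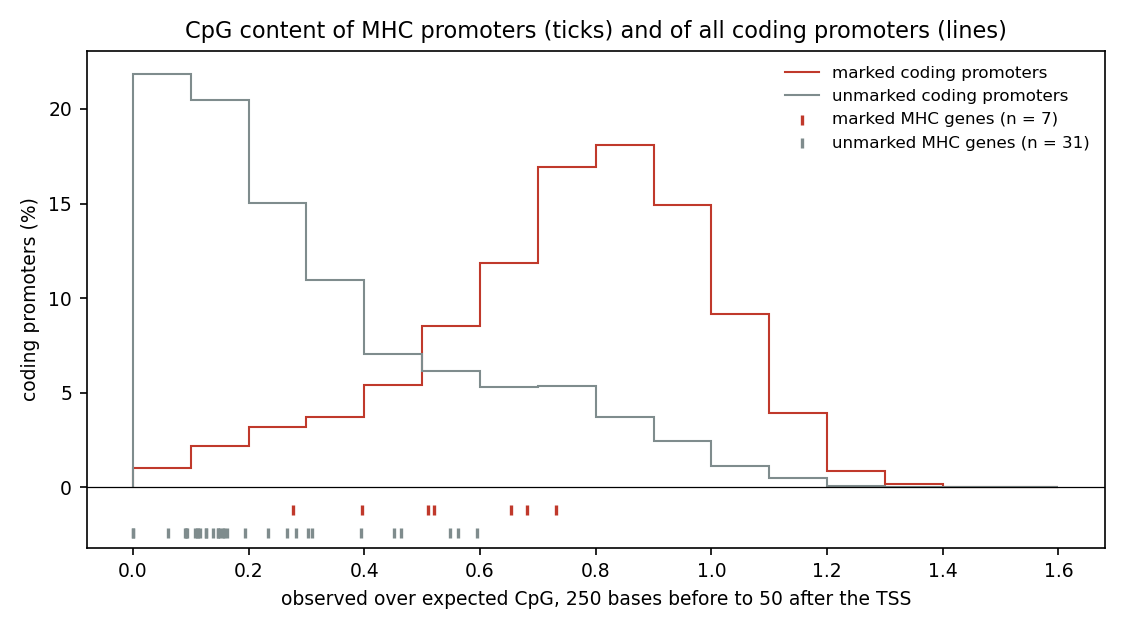
CpG ratio of the 300-base promoter (horizontal axis, no unit) as the share of marked and of unmarked protein-coding genes in each bin (percent, vertical axis), with the MHC genes shown as ticks under the axis. Ratios above 1.6 are not drawn. At these start sites unmarked MHC genes lie between 0 and 0.595, and 3 of the 7 marked ones exceed 0.6.

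The promoters of class I and class II genes are known for a shared module of X and Y boxes, bound by RFX, CREB/ATF and NF-Y proteins, through which the coactivators NLRC5 and CIITA act. The letters of the Y box, CCAAT, were found in 29 of 38 member promoters (76.3%), beside 38.7% of all protein-coding promoters. The X box core ACNGATG was found in 18 (47.4%, beside 8.54%), 12 of them class I heavy chain and 6 class II genes. TATAAA was found in 16 (42.1%, beside 12.4%), of which 13 were class I heavy chain genes. TGACG was found in 13 (34.2%, beside 23.3%), GGNNTTNCC in 12 (31.6%, beside 16.3%) and GAAANNGAA in 5 (13.2%, beside 8.48%). Many of these promoters are copies of each other, so their matches are not independent.

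CCAAT was found in 4 of 7 marked and 25 of 31 unmarked members, the X box core in 2 and 16, and the NF-kB motif in 4 and 8. With 7 marked members no difference was tested. In the sequences printed above, the unmarked H2-D1 held 2 NF-kB matches, the X box core followed by TGACG, 2 CCAAT matches and a TATA box at position -26, whereas the window at its annotated TSS held 1 other X box core match and no further motif. H2-K1 held the same kinds of match except the X box core. The marked H2-Q7 had a set like that of H2-D1 without the TATA box, and the unmarked H2-Q6 differed from H2-Q7 in lacking TGACG. The marked H2-Q10 had only 1 NF-kB match and a TATA box. B2m had matches to every motif but the X box core, and was the only one of these with the exact letters GAAANNGAA, at position -139. The printed H2-K1, H2-D1, H2-Q6, H2-Q7 and H2-Q10 sequences share the run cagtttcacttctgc, which GAAANNGAA does not match on either strand. Variant forms of an interferon element were not searched, so lacking these letters does not mean lacking such an element. A match says only that the letters occur, and binding was not measured.

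Of other genes of antigen presentation, 23 of 36 over 6 lists were marked (63.9%, 47.6 to 77.5), an interval that holds the 48.8% of all protein-coding genes. The lists were chosen for their function. Of the immunoproteasome genes and the genes of its activator, Psme1, Psme2 and Psmb10 were marked, while Psmb8 and Psmb9 in the class II stretch were not. Of other class I processing genes, Canx, Calr and Pdia3, which encode folding factors of the endoplasmic reticulum, and Erap1, which encodes a peptide-trimming enzyme, were marked, and Tapbpl was not. Of class II processing genes, the proteases Lgmn and Ctsl were marked. Cd74, which encodes the invariant chain, and Ctss were not, at 8.04 and 61.3 kb from a peak. Ifi30 of this list was not among the protein-coding genes of the annotation.

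Of 9 regulators of MHC transcription, 7 were marked, namely Creb1, Nfya, Nfyb, Rfx5, Rfxap, Rfxank and Ciita (77.8%, 45.3 to 93.7, an interval that also holds 48.8%). The peak at Ciita, the class II coactivator gene, was 16457 bp wide and overlapped no other protein-coding promoter, although 8 of the 9 class II genes themselves were unmarked. Nlrc5, the class I coactivator gene, was unmarked at 46.3 kb from a peak, and Nfyc at 4.86 kb, although another annotated TSS of Nfyc was marked. Of the interferon gamma pathway, Irf1, Irf2, Jak1 and Jak2 were marked and the receptor genes Ifngr1 and Ifngr2 were not, at 177 and 17.6 kb. Of class I-like genes on other chromosomes, Cd1d1, which presents lipids, and Fcgrt, the neonatal Fc receptor, were marked. Mr1, Hfe, Procr and Azgp1 were not, and Cd1d2 was not among the protein-coding genes.

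The list carried the marks of the labelled cell type. Of 8 stem cell markers 7 were marked (Pou5f1, Nanog, Sox2, Zfp42, Tdgf1, Utf1 and Klf2, but not Dppa3). This is 87.5% (52.9 to 97.8), beside 48.8% of all protein-coding genes. Haematopoietic and antigen-presenting cells are those in which class II genes are mainly active. Of 8 of their markers, 1 was marked (Cd14; 12.5%, 2.24 to 47.1), with Ptprc and Spi1 unmarked. Of 6 fibroblast markers, Twist1 was marked (16.7%, 3.01 to 56.4, an interval that holds 48.8%), and Pdgfra only at another annotated TSS.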

How the data were processed

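H3K27ac was measured by ChIP-seq in E14 mESCs. Per the methods, the authors trimmed reads with Cutadapt, aligned them with bwa meme to a combined mouse (mm10) and human reference, discarded duplicates by Picard 2.9.1 and reads of MAPQ below 10 with SAMtools 1.4, called peaks with LanceOtron, merged peaks within 2 kb with Bedtools, and dropped peaks of low height after input subtraction or away from ATAC-seq summits. The deposited file used here holds values other than counts or signal, namely chromosome, start and end of each control peak in mm10, pooled over both replicates. Depth cannot be read from the list, and a promoter without a peak may have missed a height threshold or had no signal. Merging within 2 kb can join the peaks of neighbouring promoters.

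Peaks were compared with the GENCODE annotation of GRCm38 (release M21; the study names a later one). Each gene was represented by the TSS of its protein-coding isoform of longest genomic span. Shares were given 95% Wilson intervals, and no set test was made. Motifs were searched on both strands, promoters were aligned end to end with Biopython 1.88, and unique stretches were counted over the whole genome. RefSeq promoters were matched by symbol for 34 members and not for Tap2, H2-Ab1, H2-Q1 and H2-T24, and 32 of the 34 had a RefSeq TSS within 300 bp of the annotated one. The members and lists were chosen with earlier results of these data known. Every marked member was to be named, as were unmarked members within 10 kb of a peak, H2-K1, H2-D1, H2-Aa, H2-Ab1, H2-Eb1, H2-M3 and the 4 genes without an H2- symbol, and further members are named by their group or stretch. 1 gene of the lists is not reported here by name. Overlap and distance functions were tested on simulated peaks.

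Alternatives were other promoter windows, isoforms, overlaps and peak widths, genes without a near neighbour, other definitions of a neighbour, distances to midpoints, other windows for composition and motifs, and 100-base stretches. Leaving out H2-Ke6 and using RefSeq start sites for marking or motifs were added once the data had been seen. The software was Python 3.11.15 with pandas 2.3.3, numpy 2.4.6, matplotlib 3.10.9 and scipy 1.17.1.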

Additional observations from a re-analysis of the deposited data

How the results depend on the processing

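The count of marked members stayed between 5 and 7 under all alternatives, while the share of all protein-coding promoters moved between 43.7% and 51.0%. It was 5 with peaks at least 1 kb wide, when H2-Q7 and H2-Q10 were lost, 6 with the TSS itself inside a peak, when H2-Q7 was lost, and 6 with the longest spliced isoform, when H2-DMa was lost. It was 6 of 35 among members with no other protein-coding TSS within 2 kb, and 7 of 34 at RefSeq start sites. Of 112 calls of 16 named members under alternatives, these 4 changed. The number of marked members that share a peak was 4 under every setting except 5 when any gene body under the peak counted. With peaks at least 1 kb wide these were 4 of 5 marked members, against 4 of 7 in the main setting. The median unique share rose from 97.0% to 100% with 100-base stretches, since longer stretches are more often unique, and the interferon response element core was found in 3 of 34 RefSeq promoters against 5 of 38. H2-T24 has no entry in that table, and the H2-Q2 match at position -246 leaves the window when the start site moves by 65 bp. The other motif counts, the median distance over all members (33.6 to 35.6 kb), the composition, the share of marked pathway genes and that of other genes in the span stayed within the limits set for a change.

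No paired analysis was possible because both control replicates were pooled in the list used here, with no value for either. Leaving out a replicate was not run for the same reason. Without heights the list does not say how far an unmarked promoter lay under the authors' thresholds.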
